A study of Homo sapiens with 4 samples.

Results

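Chromatin loops of 50 to 200 kb were described in A673 cells, an Ewing sarcoma line, with and without STAG2. The loops are the rows of the authors' deposited table of high-confidence loops whose length, the distance between anchor midpoints, is at least 50 kb and below 200 kb. This rule takes 5571 of 22680 loops, 24.6% of the table, which runs from 5000 to 1991059 bp. The STAG2-null group holds 2 libraries, mutant_161 and mutant_162, from single-cell clones edited with Cas9, and the wild-type group holds 2 libraries, WT_NT1 and WT_NT2. All 4 libraries are SMC1 HiChIP of the same line. No label says whether the libraries of a genotype are separate cultures. A p-value here therefore sets the genotype difference against the variation between these libraries, which can be technical alone. A clone cannot be told apart from its genotype.

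Cohesin is a ring-shaped complex that extrudes DNA loops until it meets CTCF bound at an anchor. SMC1 is one of its core proteins, and STAG1 and STAG2 are alternative subunits that attach to the ring. Loops in this size range commonly join promoters, enhancers and CTCF sites within a single domain. HiChIP counts paired-end tags (PETs), read pairs whose ends were ligated because they lay close together and were pulled down with the antibody.

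The 3 loops shown here illustrate contacts of this class. For each, the start of a gene at an anchor is printed from RefSeq (GRCh38.p14, 250 bases before to 50 after the start). A loop of 102 kb reaches TUBB4B, a beta-tubulin gene, at an anchor that also holds the starts of other genes. A loop of 105 kb starts at RXRA, the retinoid X receptor alpha gene. A loop of 56.5 kb reaches CAV1, which encodes the scaffold protein of caveolae. RXRA and CAV1 have further starts in RefSeq, and the first is shown. Capitals mark GGAAGGAA on either strand, a repeat of the core that ETS factors such as EWS-FLI1 bind. It stood in the CAV1 window and not in the others, against 3.67% of 35116 RefSeq promoters. A further CAV1 window that overlaps the printed one holds the same copy, and the CAV1 window at chr7:116526112-116526411 holds none. The core of the CTCF motif, searched on both strands, was in none of the printed windows, against 2.41% of promoters.
TUBB4B, chr9:137241037-137241336, plus strand: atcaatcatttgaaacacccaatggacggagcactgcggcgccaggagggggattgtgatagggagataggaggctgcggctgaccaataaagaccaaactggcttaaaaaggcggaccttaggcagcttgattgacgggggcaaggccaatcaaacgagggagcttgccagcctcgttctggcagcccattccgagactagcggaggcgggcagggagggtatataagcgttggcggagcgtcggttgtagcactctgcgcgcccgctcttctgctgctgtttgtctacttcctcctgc
RXRA, chr9:134326205-134326504, plus strand: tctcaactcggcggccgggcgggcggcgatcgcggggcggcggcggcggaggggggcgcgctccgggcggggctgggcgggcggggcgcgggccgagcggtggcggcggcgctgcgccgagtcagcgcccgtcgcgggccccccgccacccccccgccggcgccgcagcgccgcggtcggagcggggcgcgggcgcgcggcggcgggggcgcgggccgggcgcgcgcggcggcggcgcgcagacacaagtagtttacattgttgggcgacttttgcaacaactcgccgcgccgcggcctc
CAV1, chr7:116524759-116525058, plus strand: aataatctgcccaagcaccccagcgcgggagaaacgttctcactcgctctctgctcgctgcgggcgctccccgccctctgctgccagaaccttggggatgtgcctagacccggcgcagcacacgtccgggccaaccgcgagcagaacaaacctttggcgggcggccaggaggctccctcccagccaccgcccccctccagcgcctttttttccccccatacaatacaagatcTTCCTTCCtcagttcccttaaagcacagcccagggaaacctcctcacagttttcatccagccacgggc

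The mid-range loops were sparsely covered and had broad anchors. A loop held between 9 and 337 PETs over the 4 libraries, with a median of 17 against 21 for other loops, and 2103 held at least 20. At least 1 library had no PET in 568 loops. The median length was 95.5 kb. The wider anchor of a loop had a median of 10.9 kb and the narrower one of 4.79 kb, against 7.43 and 3.29 kb in other loops. Chromosomes 1, 9, 11, 17 and 12 held 3321 of the loops, 59.6%. Log2 counts correlated across the loops at r = 0.324 within STAG2-null, 0.398 within wild type and 0.250 to 0.315 between genotypes, where loops are not replicates and low counts hold the values down.

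Loops shared anchors widely. The 5571 loops rested on 5336 anchors, of which 3152 belonged to 1 loop and 501 to at least 5. The anchor in most loops, chr9:132240582-132270109 (hg19, as are all loop positions), belonged to 23. Joined through shared anchors, the loops formed 1052 networks, 496 of them a single loop. Neighbouring loops of a network share an anchor and its coverage, so they are not independent of each other.

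Mid-range loops held a smaller share of the table's PETs in STAG2-null cells. They held 28213 and 29703 PETs in mutant_161 and mutant_162, the STAG2-null libraries, against 30524 and 34413 in WT_NT1 and WT_NT2. These were 19.1% and 18.6% of all PETs in the table in STAG2-null libraries, against 21.4% and 21.7% in wild-type libraries. Both STAG2-null libraries lay below both wild-type libraries, with means of 18.9 ± 0.346% and 21.5 ± 0.152% (SD, n = 2 each). The log2 ratio of the means was -0.19, while the log2 ratio was 0.04 for mutant_161 over mutant_162 and -0.01 for WT_NT1 over WT_NT2. With 2 libraries against 2 the smallest two-sided p of an exact permutation test is 0.3333, and this was the value obtained. The table totals were 147518 and 159388 PETs in STAG2-null and 142379 and 158922 in wild-type libraries.

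The lower share ran through the whole length range. In steps of 25 kb, the log2 ratio of shares was -0.21, -0.22, -0.21, -0.11, -0.17 and -0.17 from the shortest to the longest step, and both STAG2-null libraries lay below both wild-type libraries in each. The neighbouring class of 20 to 50 kb stood at -0.11, loops under 20 kb at 0.11, loops of 200 to 500 kb at 0.04 with overlapping libraries, and those of 500 kb or more at 0.32. The class limits therefore did not mark a step at the lower end. The 171 loops of 50 to 52 kb had a median fitted log2 change of -0.16, and the 183 loops of 48 to 50 kb just outside one of -0.20. At the upper end the 31 loops of 198 to 200 kb stood at -0.51 and the 38 of 200 to 202 kb at -0.41.

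**Figure D1:**
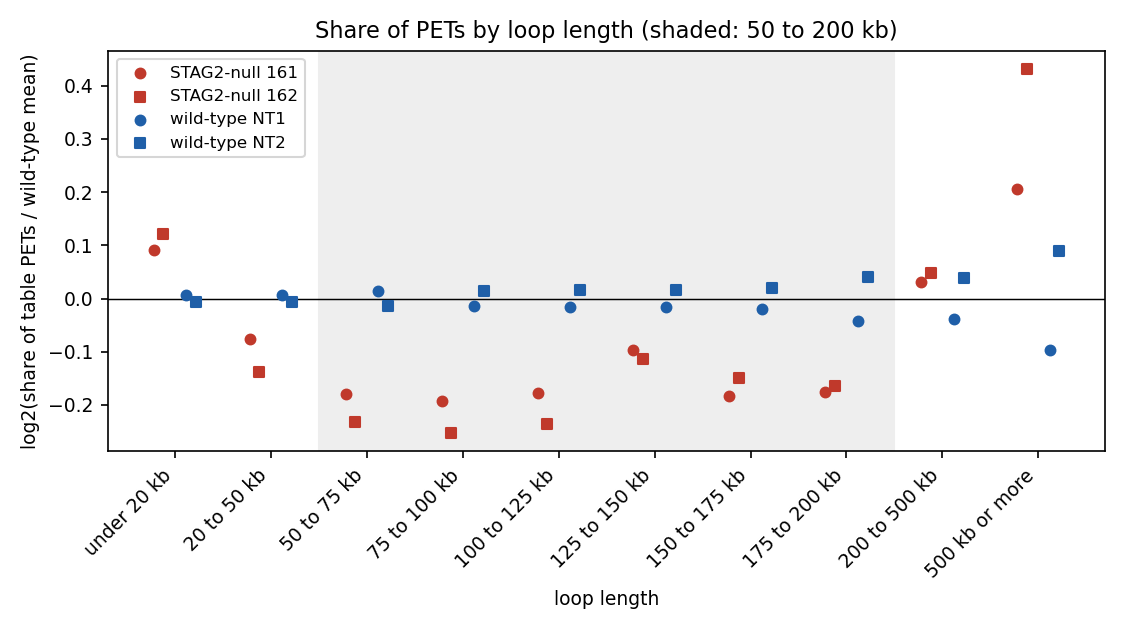
Share of table PETs by loop length on a log2 scale relative to the wild-type mean, with 1 point per library and loops of 50 to 200 kb shaded. In the 6 shaded steps all STAG2-null points lie below all wild-type points, by log2 ratios of -0.22 to -0.11, while loops under 20 kb lie above them.

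Set against single length classes, the ratio of mid-range PETs to those of loops under 20 kb was lower by 0.30 on the log2 scale in STAG2-null cells. Against loops of 20 to 50 kb the difference was -0.08, against 200 to 500 kb -0.23, and against 500 kb or more -0.51. In each comparison both STAG2-null libraries lay below both wild-type libraries. The mid-range class was thus lower relative to shorter and to longer loops, and least so relative to loops of 20 to 50 kb.

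Pairs outside the table were examined as well. They are what the choice of loops left over in the same 4 libraries, so they are not an independent check. Among PETs of all anchor pairs that are not in the table, 27.9 ± 0.0794% lay 50 to 200 kb apart in STAG2-null and 30.2 ± 0.00869% in wild-type libraries (SD, n = 2 each), a log2 ratio of -0.11 (exact permutation p = 0.3333, two-sided). Pairs under 50 kb made up 25.2 ± 0.543% and 24.6 ± 0.419%, and pairs of 200 kb or more 46.9 ± 0.464% and 45.2 ± 0.428%, in the same order. Of all PETs 50 to 200 kb apart, table loops held 16.2 ± 0.471% in STAG2-null and 16.1 ± 0.322% in wild-type libraries (SD, n = 2 each).

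Loop by loop, the fitted changes leaned to lower values in STAG2-null cells. The log2 change was below 0 in 3497 of the 5571 loops, 62.8%, against 49.7% of other loops, and its median was -0.18, against -0.01 over all loops of the table. Both STAG2-null libraries lay below both wild-type libraries in 1359 loops, 24.4%, and above them in 817, 14.7%. Over all loops of the table these shares were 18.6% and 20.1%. At an unadjusted p under 0.05 in edgeR, 363 loops (6.52%) were lower and 128 (2.3%) higher, against 4.08% and 4.34% of all loops tested.

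After adjustment over all 22680 loops, 6 mid-range loops passed an adjusted p of 0.05 in edgeR's quasi-likelihood test, 1 higher and 5 lower in STAG2-null cells. That is 0.108% of the class, against 0.0573% of all loops tested (0.0353% higher and 0.022% lower). Of the 13 loops called in the whole table, the 5 lower ones were all of 50 to 200 kb, and 7 of the 8 higher ones were not. None of the 5 lower calls was kept when each chromosome was scaled to its own total, and none of the 6 without mutant_162, without WT_NT1 or without WT_NT2. DESeq2 called 0 mid-range loops, and its unadjusted p was under 0.05 in 12 higher and 44 lower ones. The sizes of the 6 changes stayed near those of edgeR in DESeq2, from -4.27 to -0.99 on the log2 scale for the lower loops and at 3.15 for the higher one.

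**Figure D2:**
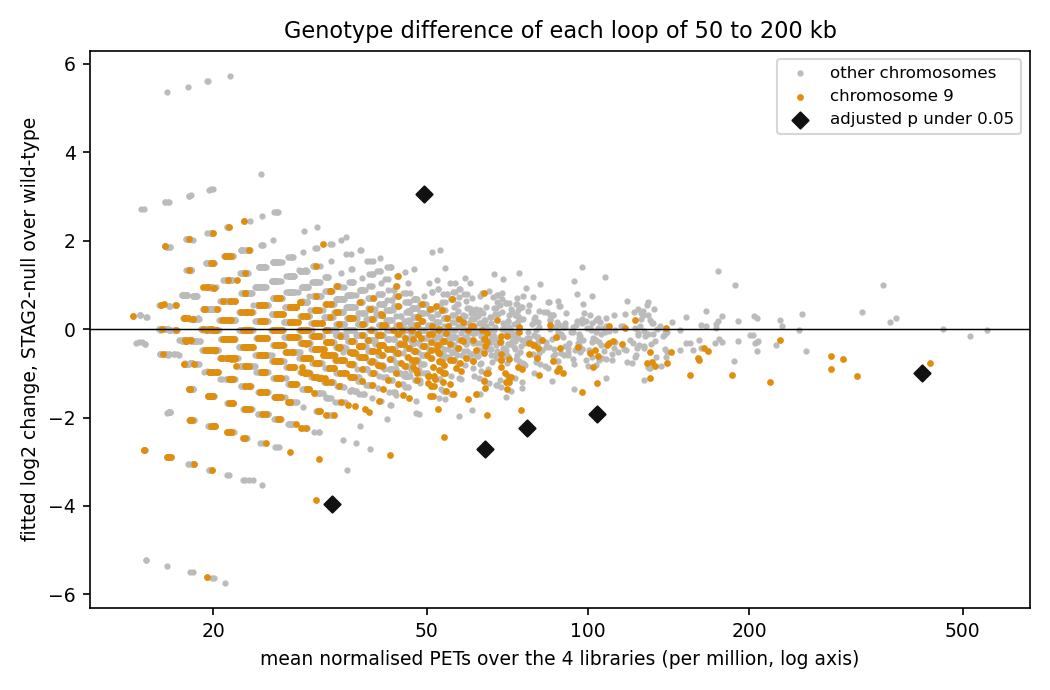
Fitted log2 change of each mid-range loop (STAG2-null over wild type) against its mean normalised PETs on a log axis, with chromosome 9 in orange and the 6 loops past an adjusted p of 0.05 as diamonds. Most chromosome 9 points lie below 0, and the spread widens at low counts.

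The 5 lower loops lay on chromosomes 9 and 20. The 102-kb loop between chr9:140021026-140025758 and chr9:140109879-140141513 held 1 and 4 PETs in STAG2-null libraries, against 17 and 17 in wild-type libraries. It fell by 2.72 ± 0.60 on the log2 scale (SE; edgeR adjusted p = 0.0294). Its broader anchor, of 31.6 kb, holds the starts of RNF208, C9orf169, RNF224, SLC34A3, TUBB4B and FAM166A. The name TUBB4B is used for this loop below, though the counts do not tell these starts apart. The 105-kb loop between chr9:137203756-137246410 and chr9:137322869-137336978, at the start of RXRA, held 11 and 2 PETs in STAG2-null libraries, against 22 and 28 in wild-type libraries. The groups did not overlap in either loop, which a choice by p favours. The STAG2-null libraries of the RXRA loop were far apart. Its log2 change was -1.93 ± 0.44 (SE; edgeR adjusted p = 0.0349), -1.14 without mutant_162 and -3.62 without mutant_161.

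A 69.4-kb loop at the start of C9orf62, between chr9:138157485-138167041 and chr9:138220657-138242758, held 5 and 3 PETs in STAG2-null libraries, against 23 and 15 in wild-type libraries (log2 change -2.23 ± 0.52, SE). The 70.2-kb loop between chr9:132073682-132119020 and chr9:132152633-132180560 held 43 and 43 PETs in STAG2-null libraries, against 71 and 99 in wild-type libraries (-0.99 ± 0.23, SE). It is also among the 10 strongest loops of the class, and no gene start is named at its anchors. Off chromosome 9, a 61.2-kb loop over SMOX, the spermine oxidase gene, between chr20:4088221-4095770 and chr20:4150656-4155788, held 1 and 0 PETs in STAG2-null libraries, against 10 and 9 in wild-type libraries. The wild-type sum was 19.1 times the STAG2-null sum after scaling, with a 95% interval of 3.04 to 796 that covers counting error only. Scaled to chromosome totals, the log2 changes of the lower loops were -2.37 (TUBB4B), -1.58 (RXRA), -1.88 (C9orf62), -0.63 (the 70.2-kb loop) and -3.86 (SMOX), with adjusted p from 0.105 to 0.321 in edgeR. With 1 library left out they ran from -3.90 to -2.11 (TUBB4B), from -2.67 to -1.80 (C9orf62) and from -1.13 to -0.82 (the 70.2-kb loop). The SMOX loop stood at -3.07 without mutant_162, and without mutant_161 no STAG2-null PET was left in it.

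The higher loop joined KLF10, a zinc finger factor gene induced by TGF-beta, at 154 kb, between chr8:103663321-103670151 and chr8:103816729-103824831. It held 14 and 13 PETs in STAG2-null libraries, against 2 and 1 in wild-type libraries. The ratio of sums after scaling was 8.93 (95% counting interval 2.75 to 46.0; edgeR adjusted p = 0.0349). With chromosomes scaled to their totals the log2 change was 3.05, against 3.06 before and 2.58 to 3.66 with 1 library left out, and the adjusted p was 0.0704 in edgeR.

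The next lower loops by p did not pass the threshold in the edgeR fit of all loops, though each passed it under some alternative. A 104-kb loop at the start of QRFP held 1 and 0 PETs in STAG2-null libraries, against 7 and 11 in wild-type libraries (edgeR adjusted p = 0.0513). The genes listed for it are ABL1, the tyrosine kinase gene, QRFP and FIBCD1, and how much of ABL1 it covers was not examined. The 118-kb loop at NTMT1, an N-terminal methyltransferase gene, held 30 and 33 against 61 and 69 (log2 -1.05 ± 0.26, SE; edgeR adjusted p = 0.0513). A 59.8-kb loop over SREBF1, the sterol-responsive transcription factor gene, and RAI1 held 0 and 2 PETs in STAG2-null libraries, against 6 and 14 in wild-type libraries. An 81.6-kb loop at TLN1, which encodes talin, and CREB3 held 0 and 3 against 11 and 12, and a 60.9-kb loop from the chromosome 9 anchor with most loops held 15 and 26 against 37 and 56. In all 5 loops the libraries of the genotypes did not overlap. They were chosen by p, which favours such a gap. Over all loops of the table, both STAG2-null libraries lay below both wild-type libraries in 18.6%. Of the 5, 4 lay on chromosome 9, which held 13.1% of the mid-range loops. When only loops with at least 20 PETs were tested, the edgeR adjusted p was 0.0349 for the NTMT1 loop, 0.0365 for the 60.9-kb loop, 0.0416 for the SREBF1 loop and 0.0420 for the TLN1 loop. Without TMM factors it was 0.0473 for the NTMT1 and QRFP loops, and with the replicate number as a block 0.0182 for the NTMT1 loop and 0.0378 for the 60.9-kb loop.

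The next higher loops did not pass in the edgeR fit of all loops either, apart from alternatives named here. The 56.5-kb loop between chr7:116104414-116111965 and chr7:116159015-116170396, at CAV1, held 37 and 39 PETs in STAG2-null libraries, against 17 and 13 in wild-type libraries (log2 1.32 ± 0.33, SE; edgeR adjusted p = 0.0624, and 0.0443 when only loops with at least 20 PETs were tested). The 128-kb loop at KIRREL, an immunoglobulin-family adhesion gene, held 54 and 91 PETs in STAG2-null libraries, against 34 and 38 in wild-type libraries (0.99 ± 0.24; edgeR adjusted p = 0.0583), and its log2 change was 0.62 without mutant_162. It passed with scaling per chromosome (edgeR adjusted p = 0.0354), with the replicate number as a block (0.0228) and without mutant_161 (0.00414). Another 3 loops had no PET in wild-type libraries. They were a 128-kb loop at TIMP2, an inhibitor of metalloproteinases, with 8 and 5 PETs in STAG2-null libraries, a 190-kb loop at SEPN1, the selenoprotein N gene, with 5 and 7, and a 51.9-kb loop over KMT2E, a gene of the KMT2 family, with 4 and 8. Against a floor of 3 PETs over the wild-type group they were at least 4.3-fold, 3.97-fold and 3.97-fold higher.

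Further higher loops by p were a 144-kb loop at GIGYF1 with 7 and 7 PETs in STAG2-null libraries, against 0 and 1 in wild-type libraries, and a 140-kb loop at SRSF1, a splicing factor gene, with 23 and 20 against 9 and 7. A 109-kb loop over PADI1, a peptidylarginine deiminase gene, held 25 and 52 PETs in STAG2-null libraries, against 19 and 19 in wild-type libraries, and its log2 change was 0.43 without mutant_162 against 0.999 with it. The libraries of the genotypes did not overlap in these 3 loops, which a choice by p favours. Over all loops of the table, both STAG2-null libraries lay above both wild-type libraries in 20.1%.

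Outside chromosome 9, the libraries of the genotypes overlapped in most of the strongest loops of the class. The log2 changes of the strongest loops there ran from -0.15 to 0.99, the latter in the KIRREL loop. An overlap of so few libraries does not show that the genotypes were equal. The highest mean belonged to a 51.7-kb loop between chr12:124928285-124955849 and chr12:124968696-125018778. It held 74 and 94 PETs in STAG2-null libraries, against 88 and 81 in wild-type libraries. A 72.4-kb loop between chr17:79355615-79387834 and chr17:79429015-79459298 held 60 and 89 against 93 and 70, and a 187-kb loop between chr12:54385535-54420315 and chr12:54584241-54596370 held 64 and 77 against 61 and 78. The genotypes overlapped in these 3 loops, whose log2 changes were -0.03 ± 0.21, -0.15 ± 0.22 and 0.01 ± 0.22 (SE). The 82.1-kb loop between chr11:65181807-65196864 and chr11:65263638-65279149 held 49 and 76 against 55 and 48. On chromosome 18 a 98.3-kb loop between 46351251-46372019 and 46439186-46480638 held 68 and 49 against 56 and 48. A 151-kb loop to the same far anchor as that of KIRREL held 41 and 72 against 32 and 54. These 3 overlapped as well, with log2 changes of 0.26 ± 0.23, 0.16 ± 0.24 and 0.38 ± 0.25 (SE).

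Of the 10 strongest loops, 3 lay on chromosome 9, within 1 network of shared anchors. The longest of the 3, the loop between chr9:132073682-132119020 and chr9:132240582-132270109 held 56 and 42 PETs in STAG2-null libraries, against 80 and 85 in wild-type libraries (log2 -0.76 ± 0.22, SE; edgeR adjusted p = 0.218). With the 70.2-kb loop and the NTMT1 loop it shares anchors. In all 3 both STAG2-null libraries lay below both wild-type libraries, as in 18.6% of all loops of the table. Because they share anchors, the 3 are not independent observations.

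**Figure D3:**
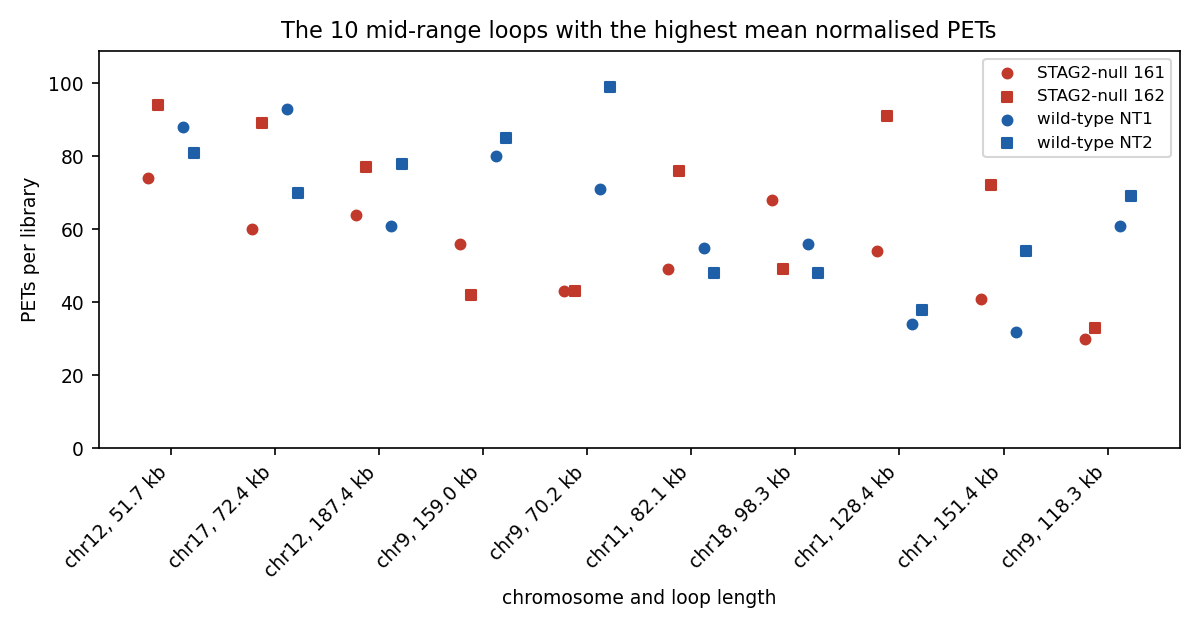
PETs per library in the 10 mid-range loops with the highest mean normalised PETs, from the highest mean at the left, named by chromosome and length. The genotypes overlap in 6 loops, and lie apart in the 3 loops on chromosome 9, lower in STAG2-null, and in the 128-kb KIRREL loop, higher in STAG2-null.

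The chromosome 9 network was the largest of the class. It spanned 1.22 Mb (chr9:131788442-133007022) with 174 loops on 69 anchors. Its loops held 1184 and 1088 PETs in STAG2-null libraries, against 1636 and 1867 in wild-type libraries, and 150 of the 174 had a log2 change below 0. The second, 94 loops at chr9:138755136-139624315, held 626 and 500 PETs in STAG2-null libraries, against 704 and 842 in wild-type libraries. The third, 85 loops at chr17:6938040-8207324, held 436 and 488 against 465 and 463. The fourth, 75 loops at chr12:53599072-54822482, held 514 and 530 against 407 and 547, and the fifth, on chromosome 8 with 71 loops, held 385 and 346 against 445 and 477. Log2 ratios of normalised sums were -0.63, -0.46, -0.02, 0.13 and -0.34 in this order. The genotypes lay apart in both chromosome 9 networks and in that of chromosome 8, and such gaps were not counted in the remaining networks. Among single loops of the whole table, both STAG2-null libraries lay below both wild-type libraries in 18.6% and above them in 20.1%. Networks were ranked by their number of loops, after the data were seen.

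Summed per chromosome, mid-range PETs fell on 11 chromosomes and rose on 2 in STAG2-null cells (edgeR's quasi-likelihood test, adjusted over 23 chromosomes). The same test on the summed other loops called 39.1% of chromosomes, 8.7% lower and 30.4% higher. Chromosome 4 fell by 0.64 ± 0.08 on the log2 scale, with 290 and 323 PETs in STAG2-null libraries, against 430 and 520 in wild-type libraries. Chromosome 9 fell by 0.55 ± 0.04, with 3801 and 3604 against 5045 and 5689, and chromosome 22 fell by 0.42 ± 0.07, with 598 and 565 against 747 and 800. The others that fell were chromosomes 18, 20, 21, 2, 8, 11, 17 and 12, by 0.29 to 0.10. Chromosome 7 rose by 0.18 ± 0.05, with 2195 and 2345 PETs in STAG2-null libraries, against 1846 and 2144 in wild-type libraries, and chromosome 19 by 0.16 ± 0.06. Chromosome 16, at 0.19 ± 0.09, had the highest value and did not pass (edgeR adjusted p = 0.0512), and the lowest, chromosome 13 at -0.74 ± 0.90, rested on 3 loops. Without WT_NT1 the test called 0 chromosomes higher and 7 lower, and without WT_NT2 it called 0 either way.

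Other loops of the same chromosomes moved with the mid-range sums on some chromosomes and not on others. On the 11 chromosomes where mid-range sums fell, the log2 change of other loops was below 0 on 6 and above 0 on 5. It passed the test as lower on 2 of the 6, at -0.29 on chromosome 9 and -0.27 on chromosome 4, and stood at -0.11 on chromosome 22. On chromosomes 18, 12, 8, 11 and 17 it was 0.10, 0.07, 0.06, 0.03 and 0.0042. Where mid-range sums rose, other loops rose too, by 0.35 on chromosome 7 and 0.40 on chromosome 19. The part of the other loops' changes in these sums was not tested. The ratio of mid-range to other loops within a chromosome does not move with the chromosome's total, and it was lower in STAG2-null cells on 22 of 23 chromosomes. On these 22, both STAG2-null libraries lay below both wild-type libraries in the share of the chromosome's PETs in mid-range loops. The exception was chromosome 14, with 59 loops. Most PETs of the other loops lay in loops under 20 kb. Against these alone, both STAG2-null libraries lay below both wild-type libraries on 22 of 23 chromosomes (median log2 difference -0.28). Against loops of 20 to 50 kb alone, the ratio was lower on 19 of 22 chromosomes, with a median of -0.06. There both STAG2-null libraries lay below both wild-type libraries on 10 chromosomes and above them on 1.

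The ratio to all other loops fell on 17 chromosomes (limma, adjusted over 23 chromosomes, 73.9% called) and rose on 0. It fell by 0.13 to 0.45 on the log2 scale, with limma adjusted p from 0.00996 to 0.0483. The median difference was -0.24 over all chromosomes. Chromosomes 7 and 19, whose mid-range sums rose, were among the 17. Mid-range loops held 14.5 ± 0.08% of the PETs of chromosome 7 in STAG2-null and 16.1 ± 0.27% in wild-type libraries (SD, n = 2 each), a log2 difference in ratio of -0.17 ± 0.03. On chromosome 19 they held 17.0 ± 0.69% and 19.5 ± 0.54% (SD, n = 2 each). On chromosome 9 the shares were 22.9 ± 0.38% and 26.1 ± 0.33%, on chromosome 16 9.69 ± 0.03% and 11.4 ± 0.01%, and on chromosome 10 14.4 ± 0.22% and 18.4 ± 0.67%, in the same order. The ratio did not pass on chromosomes 5, 6, 13, 14, 20 and 21. Chromosomes of one library share its preparation and are not replicates of the genotype. Without WT_NT2 the ratio passed on 7 chromosomes, and 22 were lower.

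**Figure D4:**
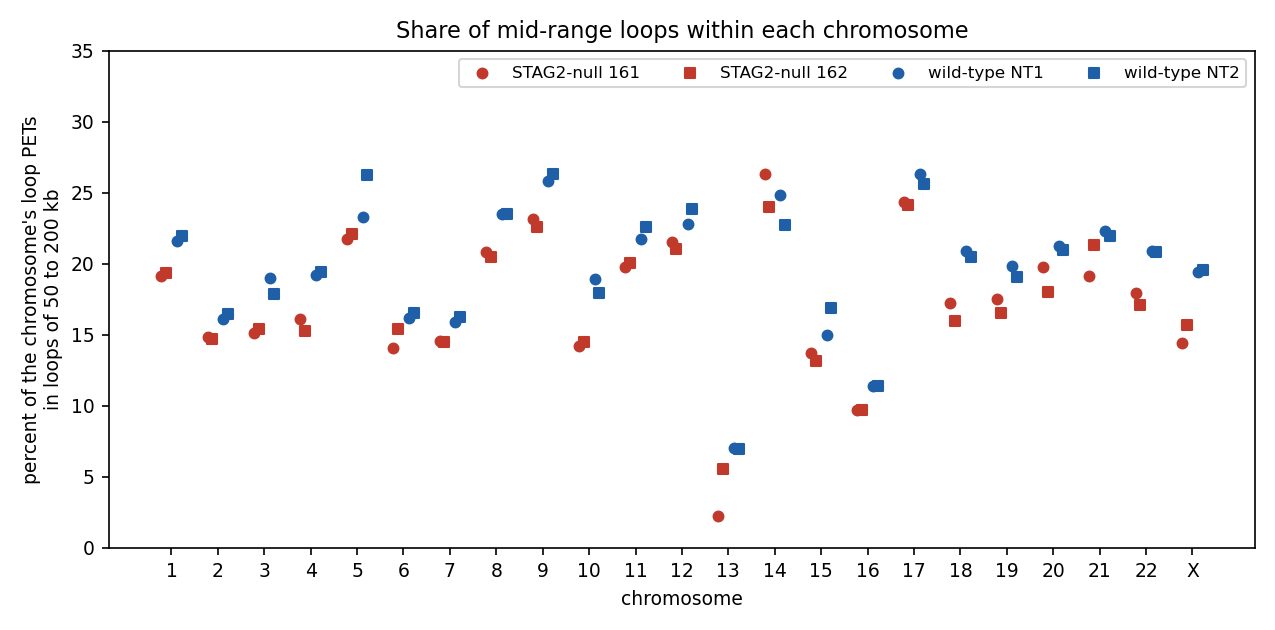
Percent of each chromosome's loop PETs that lie in loops of 50 to 200 kb, with 1 point per library. STAG2-null points lie below wild-type points on 22 of 23 chromosomes, chromosome 14 being the exception, and chromosome 13 rests on 3 loops.

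Chromosome 9 held 13.1% of the mid-range loops and 29.5% of those lower at an unadjusted p under 0.05. Of its 729 loops, 583 had a log2 change below 0, with a median of -0.47. With chromosome 9 left out, the share of mid-range loops was 18.4 ± 0.303% in STAG2-null and 20.8 ± 0.129% in wild-type libraries (SD, n = 2 each), a log2 ratio of -0.18, against -0.19 with it. The median change was -0.12 in these 4842 loops. The median was below 0 on 17 chromosomes and above 0 on 6, among them chromosomes 7, 16 and 19.

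The difference in share was present at every count level. Loops were divided by their PETs summed over the 4 libraries. The 3468 loops under 20 PETs stood at a log2 ratio of shares of -0.17, the 1670 with 20 to 39 at -0.20, the 351 with 40 to 79 at -0.21, the 69 with at least 80 and under 160 at -0.19, and the 13 with 160 or more at -0.24. Both STAG2-null libraries lay below both wild-type libraries in each class. In the top class 6 of the 13 loops lay on chromosome 9, with a log2 ratio of -0.85, and the other 7 stood at 0.16 with overlapping libraries. On chromosome 9 alone the ratio was -0.49 under 20 PETs, -0.52, -0.64 and -0.67 in the next classes. Outside it the ratio was -0.12, -0.15, -0.14 and -0.08 in the classes under 160 PETs.

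By anchor width the difference was graded. The loops were divided into 4 classes of nearly equal number by their wider anchor. In the narrowest class, 2015 to 7749 bp, they held 3.52% and 3.86% of table PETs in STAG2-null libraries, against 3.77% and 3.9% in wild-type libraries, and the groups overlapped. In the broadest, 15512 to 78921 bp, they held 6.5% and 5.83% in STAG2-null libraries, against 7.8% and 7.64% in wild-type libraries, with no overlap. The log2 ratios from the narrowest to the broadest class were -0.06, -0.12, -0.17 and -0.33, against -0.13, -0.01, 0.06 and 0.16 for mutant_161 over mutant_162, so that the STAG2-null libraries also differed from each other along this scale. The broadest class minus the narrowest was -0.27, with -0.41 without mutant_161 and -0.12 without mutant_162. Of the 5 lower calls, 4 lay in the broadest class, which held 1401 of the 5571 loops, and these 4 were all on chromosome 9. Outside chromosome 9 the broadest class had 0 lower calls in 1066 loops, and the narrowest had 1 in 1310. Among loops with 20 to 39 PETs the ratios were -0.02, -0.11, -0.20 and -0.37, and under 20 PETs -0.07, -0.17, -0.19 and -0.30. In both levels the libraries overlapped in the narrowest class. With 40 to 79 PETs the ratios from the second class to the broadest were 0.12 with overlapping libraries, -0.17 and -0.32. Outside chromosome 9 they were -0.04, -0.11, -0.13 and -0.20 from narrow to broad over all counts.

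**Figure D5:**
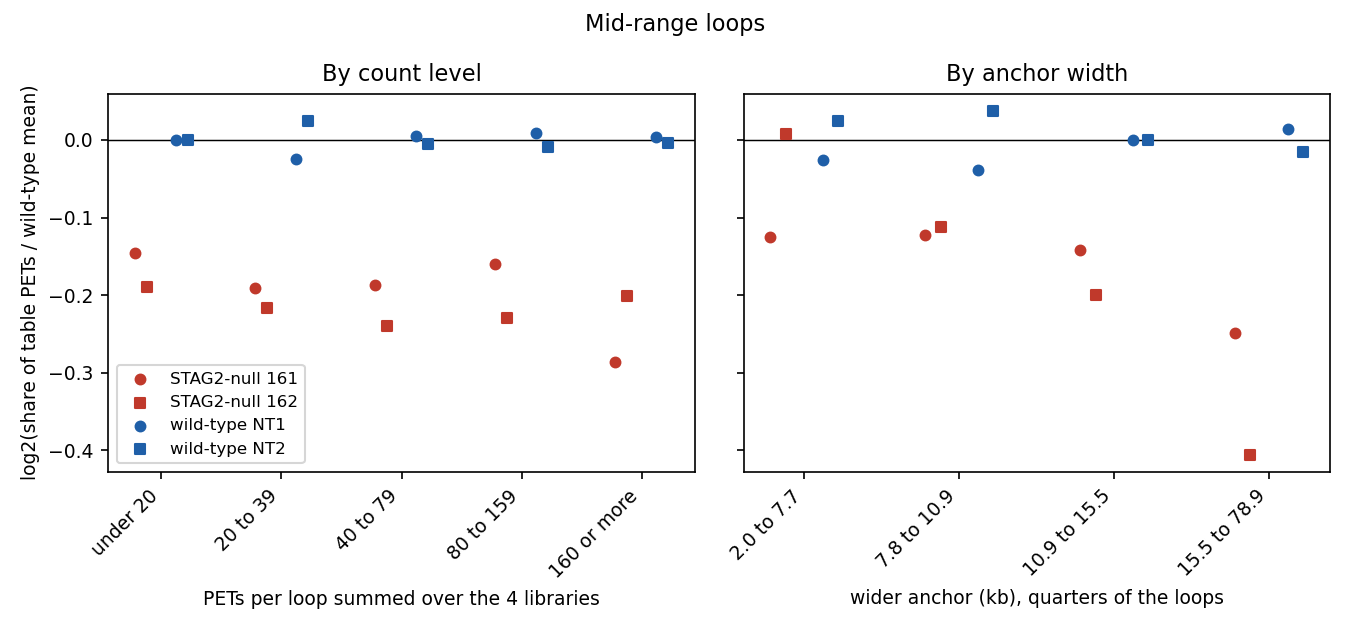
Share of table PETs held by mid-range loops on a log2 scale relative to the wild-type mean, by PETs per loop at the left and by the 4 classes of the wider anchor at the right, with 1 point per library. STAG2-null points lie below wild-type points in all 5 count classes, and the gap widens from log2 ratios of -0.06 to -0.33 with anchor width.

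Other loops showed the same order by anchor width at another level. With the same width limits their log2 ratios of shares were 0.15, 0.05, -0.04 and -0.16. The ratio of mid-range to other loops at matched width differed between genotypes by -0.21, -0.16, -0.13 and -0.16 from narrow to broad, and at matched count level by -0.19, -0.26, -0.27, -0.24 and -0.31 from low to high. In all 9 comparisons both STAG2-null libraries lay below both wild-type libraries, and the exact permutation p was 0.3333, two-sided, the smallest that 2 against 2 allows.

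The authors' deposited table of differential loops lists 150 of the mid-range loops, 2.69%, against 2.87% of all loops. It gives 114 of them (2.05%) as stronger in wild-type and 36 (0.646%) as stronger in mutant cells, against 1.32% and 1.54% of all loops. Of the 500 other loops listed there, 186 are stronger in wild-type cells. Chromosome 9 holds 45 of the 150, 44 of them stronger in wild-type cells, and off chromosome 9 the split is 70 to 35. The log2 fold changes of the authors' deposited table run as wild type over mutant, and their sign was opposite to that of the fit in all 150. The adjusted p of that table comes from another method and reached 0.0982 among the 150, above the threshold used for edgeR. The number listed is therefore not comparable with the number of edgeR calls. The next lower loops named above are listed there at adjusted p from 0.00731 to 0.0128. The next and further higher loops named above are listed at 0.00946 to 0.0424. In the authors' deposited table a CTCF peak is flagged at 1 or both anchors in 83.3% of the 150 loops, against 70.2% of the other listed loops. H3K27ac, a mark of active promoters and enhancers, is flagged in 85.3% against 81%, a promoter in 52.7% against 47.6%, and FLI1 in 29.3% against 25%. The loops of that table were listed for their difference between genotypes, so these shares describe the listed loops and not the class.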

How the data were processed

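SMC1 HiChIP libraries of A673 cells were analysed, 2 STAG2-null and 2 wild-type. HiC-Pro and hg19 are named per the submitters' processing notes. How the loop caller was set and whether it pooled libraries is not given in the sources used here. Deposited by the authors was a table of 22680 high-confidence loops with whole-number counts of PETs, a loop length in base pairs, and an adjusted p-value (FDR) per loop, the largest FDR being 0.01. Their deposited table of differential loops gives log2 fold changes and p-values per loop. Starts in the files count from 0 and are printed counting from 1.

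All loops of the table were tested with edgeR 4.0.16 in R 4.3.3 (quasi-likelihood test, genotype alone, TMM factors on table totals, no filter on low counts, Benjamini-Hochberg adjustment over all 22680 loops). Chromosome sums were tested with edgeR and ratios within chromosomes with limma 3.58.1, after adding 0.5 to both sums. The edgeR fit of loops and both chromosome tests were tested on simulated data. Count columns name a genotype and not a library, so libraries are called mutant_161, mutant_162, WT_NT1 and WT_NT2 after them. Their counts equalled the per-library counts of STAG2-null 1, STAG2-null 2, wild-type 1 and wild-type 2, in this order, in all 22680 loops. Normalised PETs are per 1000000 of the scaled table total. Loops were named by rule: the 10 with the highest mean, the 10 with the smallest p in each direction, and all past an adjusted p of 0.05. A loop that the rule names is not reported here. The length limits, classes and rules were chosen with earlier results of these data known.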

Additional observations from a re-analysis of the deposited data

How the results depend on the processing

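The share of PETs in mid-range loops was lower in STAG2-null cells under each alternative run on it, and 22 of 23 chromosome ratios were lower under each run on them. Calls of single loops did not keep their number. DESeq2 called 0 loops in each direction, and 12 were higher and 44 lower by its unadjusted p of 0.05. Testing only loops with at least 20 PETs called 2 higher and 10 lower, and scaling each chromosome to its own total called 1 higher and 0 lower. Without chromosome 9, chosen after the values were seen, edgeR called 0 in each direction, with 79 higher and 288 lower unadjusted. Leaving out 1 library gave 0 to 1 higher and 0 to 2 lower loops. Of the 6 called loops, 3 were among those of 50 to 100 kb (0 higher and 3 lower) and the others among those of 100 to 200 kb (1 higher and 2 lower).

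The median log2 change relative to all loops was -0.14 with scaling per chromosome, -0.11 without chromosome 9, -0.15 for 100 to 200 kb, and between -0.23 and -0.14 with 1 library left out. The difference in share was -1.63 points for 50 to 100 kb and -1.04 for 100 to 200 kb, which are parts of the whole, and -0.361 points with all PETs of a library as the denominator, of which table loops are a small part. Chromosome sums passed in 1 case higher with loops of at least 20 PETs, and in 0 to 1 higher and 0 to 13 lower with 1 library left out. Ratios passed on 7 to 17 chromosomes with 1 library left out. The difference between the highest and lowest count level was -0.08 and turned to 0.28 without chromosome 9, where the highest class holds 7 loops. It was -0.011 without mutant_161 and -0.14 without mutant_162. Between the broadest and narrowest anchors, the difference ran from -0.41 to -0.12 with 1 library left out.

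Some of the strongest loops changed sign near 0. With 1 library left out, log2 changes ran from -0.17 to 0.12 for the chromosome 12 loop of 51.7 kb, from -0.43 to 0.16 for the chromosome 17 loop of 72.4 kb, from -0.083 to 0.10 for the chromosome 12 loop of 187 kb, from -0.039 to 0.50 for the loop on chromosome 11, from -0.14 to 0.42 for that on chromosome 18, and from -0.031 to 0.71 for the 151-kb loop on chromosome 1. The chromosome 12 loop of 187 kb also stood at -0.0051 without TMM factors, at -0.021 with at least 20 PETs, at -0.022 with scaling per chromosome and at -0.050 without chromosome 9. The cause was not tested for any of these changes.

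Replicate numbers in the titles are shared by both genotypes, but nothing says that they pair the libraries, and deviations of same-numbered libraries correlated at 0.01. With the replicate number as a block on the per-library counts, edgeR called 2 higher and 7 lower loops, 2 higher and 12 lower chromosome sums, and limma 12 lower ratios.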
